A study of Mus musculus with 4 samples.

Results

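A set of 10 transcription factor genes of the early response to stress and growth signals was followed in TKPTS cells after hypoxia and reoxygenation: *Fos*, *Fosb*, *Fosl1*, *Fosl2*, *Jun*, *Junb*, *Jund*, *Atf3*, *Egr1* and *Myc*. They were taken by symbol from a list and are 10 of the 22063 genes listed in the table of counts. All 10 passed the filter on low counts, as did 11727 genes in all. FOS proteins pair with JUN proteins through leucine zippers to form AP-1, which binds the AP-1 site on DNA, whereas JUN proteins can also pair among themselves. Many of these genes are immediate early genes, which are transcribed within minutes of a stimulus from factors already in the cell and whose mRNA is usually short-lived. In the injured renal tubule, AP-1, EGR1 and MYC are known for switching on genes of dedifferentiation, proliferation and inflammation.

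TKPTS cells (TKPT in the sample labels) were derived from the proximal tubule of mouse kidney. The cells of all 4 libraries were kept for 24 h at 1% O2 and then for 12 h in normal oxygen. In 2 libraries the cells had been transfected with a control siRNA (Scrambled, replicates 2 and 3, genotype WT), and in the other 2 with an siRNA against *Itgb6* (Itgb6-siRNA, replicates 1 and 3, genotype Itgb6 knockdown). *Itgb6* encodes the β6 subunit of integrin αvβ6, and the comparison asks which transcripts of injured tubular cells differ when an siRNA targets it. Cells kept in normal oxygen throughout were not analysed here, so the levels are those at 12 h of reoxygenation and not an induction. All libraries come from one cell line, and nothing in the labels says that they came from separate cultures, so the p-values measure the spread between these samples, which may be technical.

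The libraries held between 15435074 and 17220281 counts. *Itgb6* itself had 285 and 284 counts in Scrambled and 279 and 260 in Itgb6-siRNA. Its log2 fold change was -0.01 ± 0.13 (SE, adjusted p = 0.991 in edgeR's quasi-likelihood test). Its counts in the libraries labelled Itgb6-siRNA lay close to those in Scrambled, so no knockdown was seen in its mRNA here. For hypoxic TKPTS cells given the siRNA, the paper reports less αvβ6 protein by western blot. Of 11 markers of the proximal tubule, 5 had no count in any library (*Slc34a1*, *Slc5a2*, *Slc5a12*, *Slc22a6* and *Miox*) and 4 passed the filter. Of these 4, the water channel *Aqp1* (9.09 to 14.8 FPKM) was higher in the Itgb6-siRNA libraries (log2 fold change 0.59 ± 0.10, SE, adjusted p = 0.000617 by edgeR). The 7 epithelial markers summed to 1400 to 1510 FPKM (fragments scaled by transcript length and library depth), led by *Krt18* and *Krt8*. *Krt8* was lower in the Itgb6-siRNA libraries (fold change 0.872, adjusted p = 0.00881 by edgeR). With trends of GC content and length removed, its log2 fold change was -0.11 (adjusted p = 0.200 by edgeR) and that of *Aqp1* 0.65 (0.00125). With a library left out, *Krt8* ran from -0.21 to -0.19 and *Aqp1* from 0.48 to 0.71. The 7 immune markers summed to at least 84.4 FPKM in each library, most of it *Cd68* (78.8 to 93.0 FPKM), 4 endothelial markers to 0.671 to 2.06 FPKM and 6 fibroblast markers to 0.593 to 1.24 FPKM. Of the immune and fibroblast markers, *Cd3e* and *Acta2* had no count in any library. The part of these markers in the values below was not tested.

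Early response genes are known for short control elements next to their starts, bound by factors such as CREB and AP-1 itself. RefSeq windows of 250 bases before and 50 bases after a transcription start (GRCm38.p6) were at hand for 7 of the 10 genes. The windows of *Junb*, which had a lower value in the Itgb6-siRNA libraries, of its paralog *Jun* and of *Fos* are printed here, since each start lies within 30 bases of that in GENCODE. Capitals mark matches on either strand to the CRE core CGTCA (read as TGACG on the other strand), part of the cyclic AMP response element TGACGTCA, or to TGACATCA, a variant of the AP-1 site for which the *Jun* promoter is known.
Junb, chr8:84978699-84978998, minus strand: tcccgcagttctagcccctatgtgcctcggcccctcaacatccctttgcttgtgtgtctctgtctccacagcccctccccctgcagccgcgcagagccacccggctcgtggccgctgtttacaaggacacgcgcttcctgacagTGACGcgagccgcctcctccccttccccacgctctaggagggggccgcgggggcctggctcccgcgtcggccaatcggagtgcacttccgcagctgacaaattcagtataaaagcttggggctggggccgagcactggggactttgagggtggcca
Jun, chr4:95052173-95052472, minus strand: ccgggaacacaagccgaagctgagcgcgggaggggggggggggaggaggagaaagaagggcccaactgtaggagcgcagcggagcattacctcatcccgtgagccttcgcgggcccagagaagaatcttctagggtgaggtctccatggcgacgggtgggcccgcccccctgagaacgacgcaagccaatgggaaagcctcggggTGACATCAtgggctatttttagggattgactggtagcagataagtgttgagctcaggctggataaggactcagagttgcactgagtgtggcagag
Fos, chr12:85473640-85473939, plus strand: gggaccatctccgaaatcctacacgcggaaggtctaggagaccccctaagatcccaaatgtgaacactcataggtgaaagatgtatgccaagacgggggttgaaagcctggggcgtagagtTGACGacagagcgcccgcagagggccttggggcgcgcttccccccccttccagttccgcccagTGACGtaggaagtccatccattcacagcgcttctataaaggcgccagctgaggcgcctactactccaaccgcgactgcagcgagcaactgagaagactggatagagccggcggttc
The CRE core began 106 bases before the start in *Junb*, 60 bases before it in *Fosb*, 7 bases before it in *Atf3* and at 129 and 66 bases before it in *Fos*. These 4 of the 7 windows held it, as did 20.8% of all 32851 windows. The *Jun* variant lay 45 bases before the start of *Jun*, which was the 1 member window with it, against 3.62% of all windows. None of the 7 windows held the AP-1 site TGAGTCA (5.20% of all windows), the whole CRE TGACGTCA (1.79%), the E-box CACGTG bound by MYC (7.15%), the EGR1 site GCGTGGGCG (0.612%) or a serum response element of the CArG type (1.63%). A match is a string of letters in these windows and not a binding site. Elements more than 250 bases before a start lie outside the windows and were not searched. *Fosl1*, *Egr1* and *Myc* had no window, so the lack of a match says nothing about them. The window given for *Jund* lies 1210 bases upstream of its GENCODE start, and those of *Fosl2* and *Atf3* start 671 and 34706 bases inside the GENCODE gene, so these belong to another start. Neither *Jund* nor *Fosl2* held any of these motifs.

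At 12 h of reoxygenation the mRNA of the JUN side of AP-1 was far more abundant than that of the FOS side. On the FPKM scale, which corrects for transcript length, the 3 *Jun* genes summed to 234, 224, 198 and 176 and the 4 *Fos* genes to 27.4, 30.2, 29.4 and 28.6 (Scrambled replicates 2 and 3, then Itgb6-siRNA replicates 1 and 3, the order kept below). The ratio of the sums was 8.54, 7.40, 6.73 and 6.15. It was lower in both Itgb6-siRNA libraries than in both Scrambled libraries, with the *Jun* sums apart between the groups and the *Fos* sums overlapping. For scale, 25.4% of all genes tested were lower and 23.8% higher without overlap between the groups in normalized counts. Within the *Jun* genes, *Junb* and *Jund* made up nearly the whole sum, and *Jun* itself 2.92% to 3.29%. With trends of GC content and length removed, the log2 fold change of *Junb* went from -0.23 to -0.07 and that of *Jund* from -0.34 to -0.12. The ratio was not recomputed with these trends removed. The *Fos* sums include *Fosl1*, whose FPKM rested on a shorter length in Itgb6-siRNA replicate 3 (1574 against 1864 bases).

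**Figure D1:**
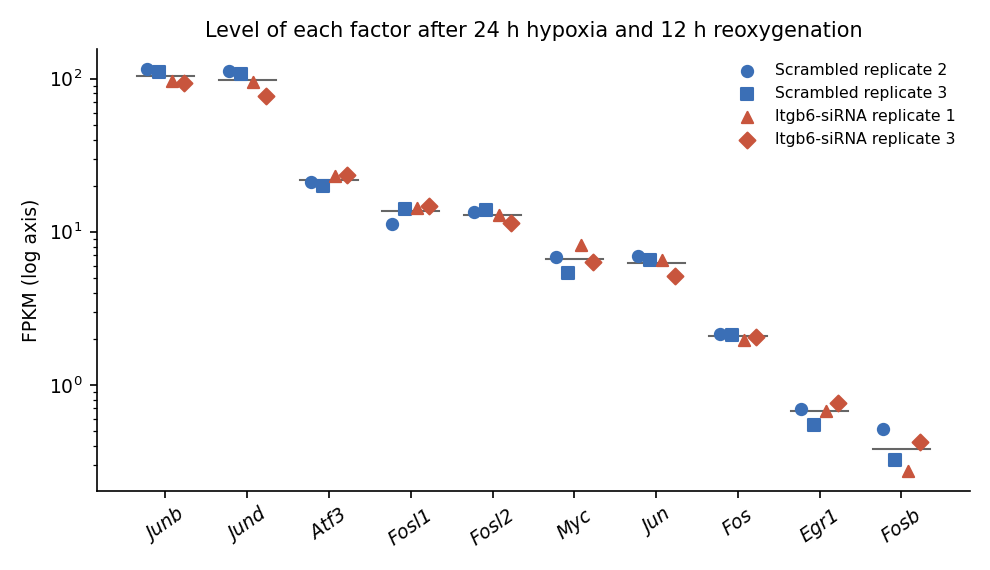
FPKM (log axis) of each factor in each library; symbols give the 4 libraries, blue for Scrambled and red for Itgb6-siRNA, and the bars the mean of all 4. *Junb* and *Jund* stand between 77.0 and 115 FPKM, while *Fosb* and *Egr1* stay below 1 FPKM in every library.

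The order of the levels ran over more than 2 orders of magnitude. *Junb* (mean 104 ± 10.3 FPKM, SD, n = 4) and *Jund* (98.0 ± 15.7) led, with overlapping ranges, above 93.2% and 92.8% of the genes tested. *Atf3* followed at 21.9 ± 1.76, clear of both neighbours. *Fosl1* (13.6 ± 1.54) and *Fosl2* (12.9 ± 1.06) overlapped each other, as did *Myc* (6.67 ± 1.16) and *Jun* (6.29 ± 0.775). *Fos*, the founding member of the family, stood at 2.07 ± 0.078 FPKM, above 20.5% of the genes tested. *Egr1* (0.671 ± 0.0894) and *Fosb* (0.382 ± 0.106) were lowest, above 8.4% and 4.4% of the genes tested, and their ranges did not overlap. *Fos*, *Fosb* and *Egr1*, which are known as transient, were the 3 lowest of the 10 at this time. *Junb* and *Atf3*, also genes of the early response, stood at 104 and 21.9 FPKM. Whether any of them had risen and fallen before was not tested.

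Read against all genes, the fold changes of the 10 factors between the siRNAs were small. By the thresholds the study used (a fold change over 1.2 with an unadjusted p under 0.05), 1 of the 10 was lower in the Itgb6-siRNA libraries, *Jund*, beside 5.20% of all genes tested, and 0 were higher, beside 4.37%. By an adjusted p under 0.05, 2 were lower, *Junb* and *Jund*, beside 2.52% of genes, and 0 higher, beside 2.11%. By the same p and fold, DESeq2 called 1 lower, beside 3.27% of genes, and 0 higher, beside 2.73%. In edgeR, at an unadjusted p under 0.05 alone, 3 were lower (*Fosl2*, *Junb* and *Jund*), beside 9.62% of genes, and 1 was higher (*Atf3*), beside 8.80%. In normalized counts, the groups did not overlap for 5 genes that were lower (*Fos*, *Fosl2*, *Jun*, *Junb* and *Jund*), beside 25.4% of genes. They also did not overlap for 2 that were higher (*Atf3* and *Egr1*), beside 23.8%. The median log2 fold change of the 10 was -0.11, beside 0.00017 over all genes tested.

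**Figure D2:**
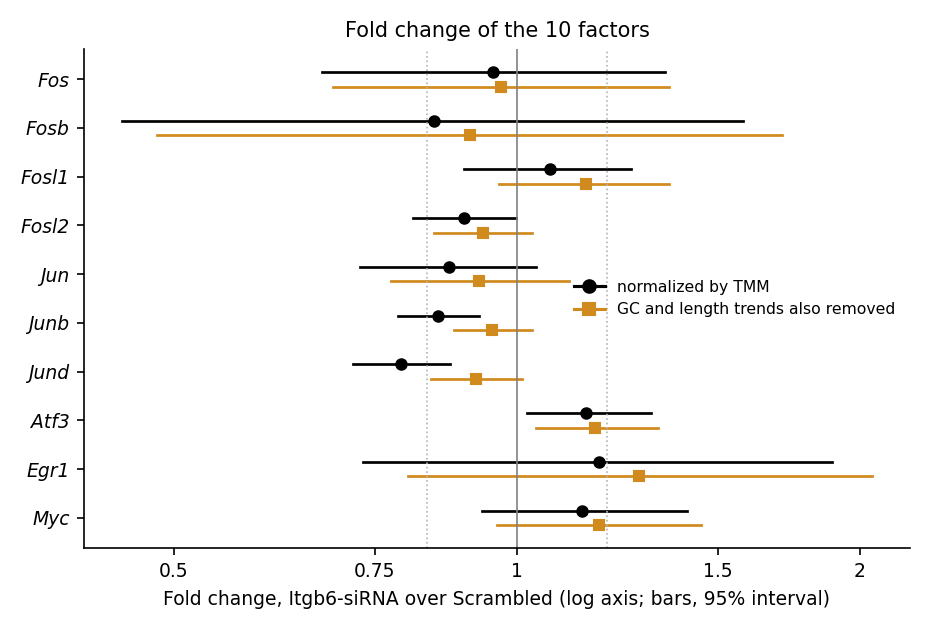
Fold change of each factor in Itgb6-siRNA over Scrambled (log axis) with its 95% interval, after TMM normalization (black) and with trends of GC content and length also removed (orange); dotted lines mark a fold change of 1.2 either way. The black intervals of *Jund*, *Junb* and *Fosl2* lie below 1 and that of *Atf3* above it, and of the orange ones only that of *Atf3* leaves out 1.

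*Jund*, on chr8:70698949-70700616 (GRCm38), is a gene with no intron whose product is made in resting cells and is often set against the growth-promoting JUN. It had 3028 and 3087 counts in Scrambled and 2452 and 2143 in Itgb6-siRNA. In CPM (counts scaled by TMM-normalized library size) these were 186 and 179, then 158 and 130. The Scrambled libraries lay close together, both Itgb6-siRNA libraries were below them, and replicate 3 was the lowest. *Jund* fell by 20.9% (fold change 0.791, 95% interval 0.718 to 0.873), with an adjusted p of 0.00266 in edgeR's quasi-likelihood test. Without Itgb6-siRNA replicate 3 the log2 fold change went from -0.34 to -0.20 (adjusted p = 0.0786 by edgeR), under the fold threshold. The adjusted p of *Jund* was 0.264 without Scrambled replicate 2, 0.0793 without Scrambled replicate 3 and 1.13e-09 without Itgb6-siRNA replicate 1 (edgeR).

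*Junb*, on chr8:84974484-84978718, encodes a JUN protein that competes with JUN for partners and acts as a weaker activator on many AP-1 sites. It had 206 and 198 CPM in Scrambled and 173 and 172 CPM in Itgb6-siRNA, or 3365, 3419, 2674 and 2835 counts. The groups were apart, and each was tight. *Junb* fell by 14.7% (fold change 0.853, interval 0.787 to 0.926, adjusted p = 0.0161 by edgeR), a change smaller than the fold threshold. Its log2 fold change stayed between -0.26 and -0.20 whichever library was left out, but its adjusted p rose to 0.417 without Scrambled replicate 2 and to 0.0997 without Scrambled replicate 3 (edgeR).

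*Jun*, on chr4:95049034-95052222, encodes c-JUN, the strongest activator of the family and the substrate of the JNK kinases. Its levels were 22.0 and 20.8 CPM in Scrambled and 20.7 and 16.7 in Itgb6-siRNA. Both Itgb6-siRNA libraries were below, but replicate 1 lay next to Scrambled replicate 3. The log2 fold change was -0.20 ± 0.13 (SE), with a 95% interval of the fold change from 0.729 to 1.04 and an adjusted p of 0.436 by edgeR. Without Itgb6-siRNA replicate 1 it was -0.36 (adjusted p = 0.159 by edgeR), past the thresholds on the unadjusted p and the fold, and without Itgb6-siRNA replicate 3 it was -0.05, so its size rested on replicate 3 of that group.

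**Figure D3:**
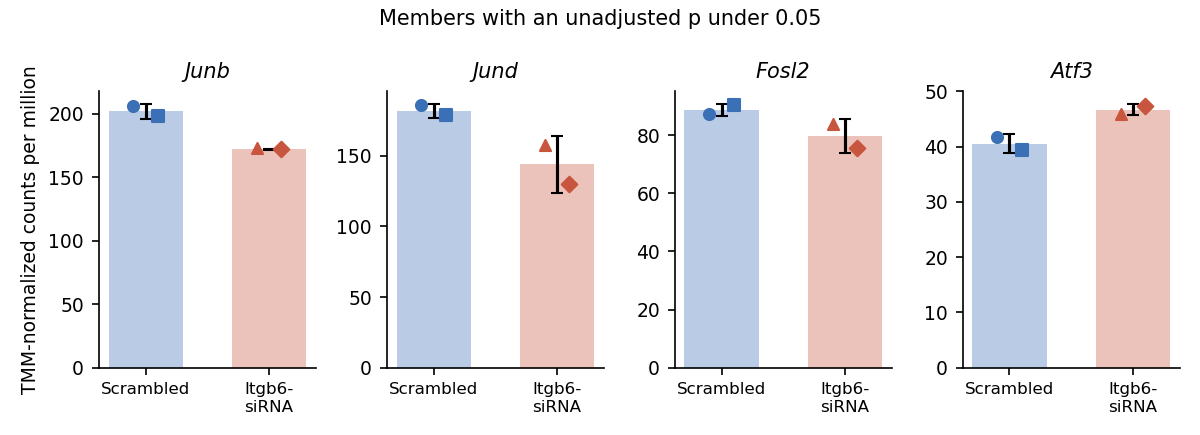
CPM, normalized by TMM, of the 4 factors with an unadjusted p under 0.05; bars and error bars are the mean and SD of 2 libraries and symbols are the libraries (circle and square, Scrambled replicates 2 and 3; triangle and diamond, Itgb6-siRNA replicates 1 and 3). *Junb*, *Jund* and *Fosl2* are lower and *Atf3* is higher in both Itgb6-siRNA libraries.

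Among the FOS proteins, the FRA proteins made by *Fosl1* and *Fosl2* lack the strong activation domain of FOS and usually persist longer after a stimulus. *Fosl2*, on chr5:32135801-32157842, had 87.2 and 90.2 CPM in Scrambled and 83.9 and 75.6 CPM in Itgb6-siRNA, again with replicate 3 the lowest. The fold change was 0.899 (interval 0.810 to 0.998, adjusted p = 0.264 by edgeR), which did not pass the fold threshold. *Fosl1*, on chr19:5447547-5455946, had 21.0 and 25.9 CPM in Scrambled and 26.5 and 23.6 CPM in Itgb6-siRNA. These groups overlapped, with Scrambled replicate 2 the lowest, and the log2 fold change was 0.09 ± 0.12 (SE, adjusted p = 0.747 by edgeR), turning to -0.05 without that library.

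The *Fosl1* level depended on how shared reads were divided. Its exons share 1163 of 2033 bases (57.2%) with those of *Ccdc85b* on the opposite strand, and the libraries carried no strand information. The estimated counts of both genes were not whole in any library, yet their sums were, at 1306, 1401, 1166 and 1177, and *Fosl1* was given 26.2%, 32.0%, 35.2% and 33.0% of them. The authors' FPKM placed *Fosl1* at 11.3 and 14.0 in Scrambled and 14.3 and 14.8 in Itgb6-siRNA, apart where the counts overlapped. The length implied by counts and FPKM was 1864 bases in the other 3 libraries but 1574 bases in Itgb6-siRNA replicate 3. Within the summed *Fos* family FPKM, the share of *Fosl1* was 41.3%, 46.2%, 48.5% and 51.6% and that of *Fosl2* 49.0%, 45.7%, 43.8% and 39.8%, so *Fosl1* passed *Fosl2* in all libraries except Scrambled replicate 2. *Jund* shares 877 of its 1668 exonic bases with *Gm11175*, *Junb* 173 of 2301 with *Prdx2* and *Jun* 232 of 3189 with *Junos*, all on the opposite strand, so reads there cannot be told apart. For *Prdx2* the log2 fold change was 0.03 (adjusted p = 0.856 by edgeR).

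*Fos*, on chr12:85473890-85477273, had only 73, 77, 64 and 72 counts, or 4.48, 4.46, 4.13 and 4.37 CPM. Both Itgb6-siRNA libraries were below both Scrambled ones by little, and the log2 fold change of -0.07 ± 0.25 (SE) had a 95% interval of the fold change from 0.674 to 1.35. *Fosb*, on chr7:19302696-19310051, a paralog of *Fos* known for a long-lived truncated isoform, had 31, 21, 16 and 26 counts. Its groups overlapped, and its log2 fold change of -0.24 ± 0.45 turned to 0.11 without Scrambled replicate 2 and to 0.02 without Itgb6-siRNA replicate 1. The 95% interval of its fold change ran from 0.450 to 1.58.

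*Atf3* encodes a stress-induced factor of the ATF/CREB class that pairs with JUN proteins and often represses. On chr1:191170296-191218039, it had 680, 678, 711 and 781 counts, or 41.7 and 39.3 CPM in Scrambled and 45.9 and 47.4 CPM in Itgb6-siRNA. Both Itgb6-siRNA libraries were above both Scrambled ones. The fold change was 1.15 (interval 1.02 to 1.31, adjusted p = 0.191 by edgeR), under the fold threshold, and the log2 fold change stayed between 0.17 and 0.25 under every alternative run.

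*Egr1* encodes a zinc finger activator induced through serum response factor. It had 38, 36, 38 and 45 counts, or 2.33, 2.08, 2.46 and 2.73 CPM, slightly higher in both Itgb6-siRNA libraries. In FPKM the groups overlapped, at 0.699 and 0.549 in Scrambled and 0.673 and 0.762 in Itgb6-siRNA. The length implied by counts and FPKM ran from 3355 to 3808 bases. The log2 fold change was 0.23 ± 0.34 (SE, adjusted p = 0.767 by edgeR), with an interval of the fold change from 0.733 to 1.89. *Myc*, on chr15:61985391-61990374, encodes the growth-promoting factor that pairs with MAX. It had 13.7 and 11.7 CPM in Scrambled and 15.6 and 13.5 CPM in Itgb6-siRNA, and the groups overlapped. Its log2 fold change was 0.20 ± 0.15 (SE, adjusted p = 0.516 by edgeR), with an interval of the fold change from 0.931 to 1.41.

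The GC content of the transcripts moved with the fold changes. Over 11709 genes tested, the log2 fold change fell as GC content rose (Spearman's rho -0.364, a description across genes, which are not independent replicates). The 3030 genes under 45% GC had a median log2 fold change of 0.08, the 448 genes from 60% to 65% GC one of -0.14, and the 37 genes of 65% GC or more one of -0.30, with 37.8% of the latter called lower. *Junb* (62.6% GC, -0.23) and *Jund* (67.1% GC, -0.34) fall in the latter classes and are the members with the highest GC content. With trends of GC content and length removed from each library, the log2 fold change was -0.12 for *Jund* (adjusted p = 0.375 by edgeR) and -0.07 for *Junb* (adjusted p = 0.566), and neither was called. *Atf3* (52.2% GC) had 0.23 in that fit (adjusted p = 0.170 by edgeR). What gave rise to the GC trend was not tested.

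**Figure D4:**
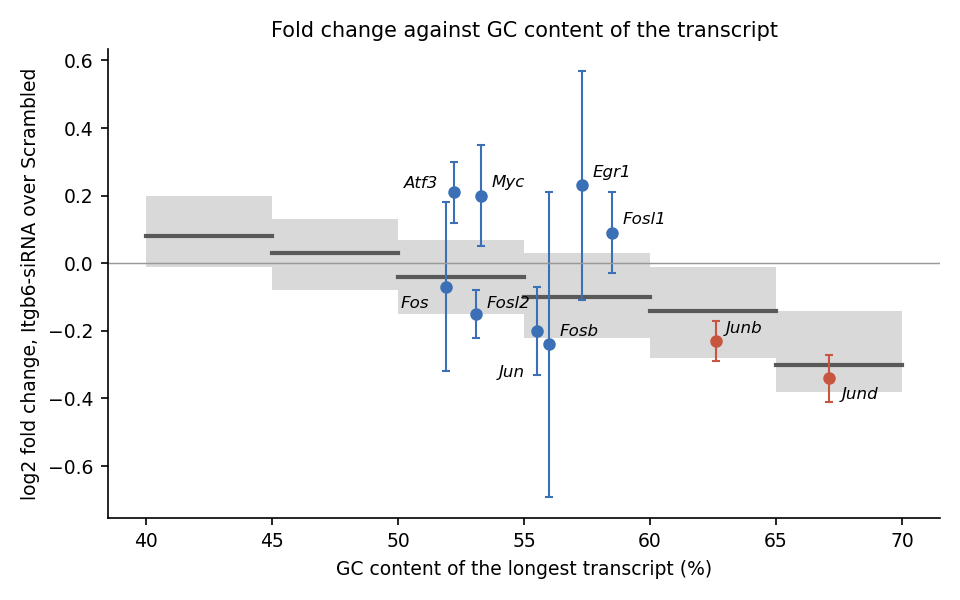
Log2 fold change of each factor (point, with its SE) against the GC content of its longest transcript, over the median (dark line) and interquartile range (grey) of all genes tested in each GC class; the outer classes are drawn from 40% and to 70%. The class medians run from 0.08 to -0.30, and *Junb* and *Jund* (red, adjusted p under 0.05) lie inside the grey range of their classes.

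The other genes of the pathway were read from lists of partners, upstream factors and targets. None of the 8 tested bZIP partners (of 12 listed) was called in either direction by either rule in edgeR or by DESeq2, 0 had an unadjusted p under 0.05, and their median log2 fold change was 0.01. Over all genes tested, 5.20% were lower and 4.37% higher by p and fold, and 2.52% and 2.11% by adjusted p. Of 26 tested other immediate early genes, 3 were lower and 4 higher by both rules. The lower ones were *Dusp1*, the phosphatase that switches off MAP kinases (-0.57 ± 0.11, SE, adjusted p = 0.00203 by edgeR), *Ier5l* (-0.46 ± 0.09, 0.00169) and *Ccn1*, a secreted matrix protein and target of YAP and SRF (-0.28 ± 0.06, 0.00453). The higher ones were *Sgk1*, a kinase of ion transport (1.27 ± 0.27, 0.00409), the zinc finger factor *Klf6* (0.53 ± 0.09, 0.000666) and the polo-like kinases *Plk3* (0.43 ± 0.12, 0.0355) and *Plk2* (0.39 ± 0.07, 0.000465). *Dusp1* had 30.0 and 28.3 CPM in Scrambled and 19.8 and 19.3 in Itgb6-siRNA, and *Sgk1* had 40, 36, 80 and 95 counts. After removal of the trends of GC content and length, 6 of these 7 genes still had an adjusted p under 0.05, and that of *Ier5l* was 0.102. Without Scrambled replicate 2, none of the 7 kept an adjusted p under 0.05 in edgeR, *Sgk1* also lost it without Scrambled replicate 3, and *Plk3* kept it only without Itgb6-siRNA replicate 3.

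**Figure D5:**
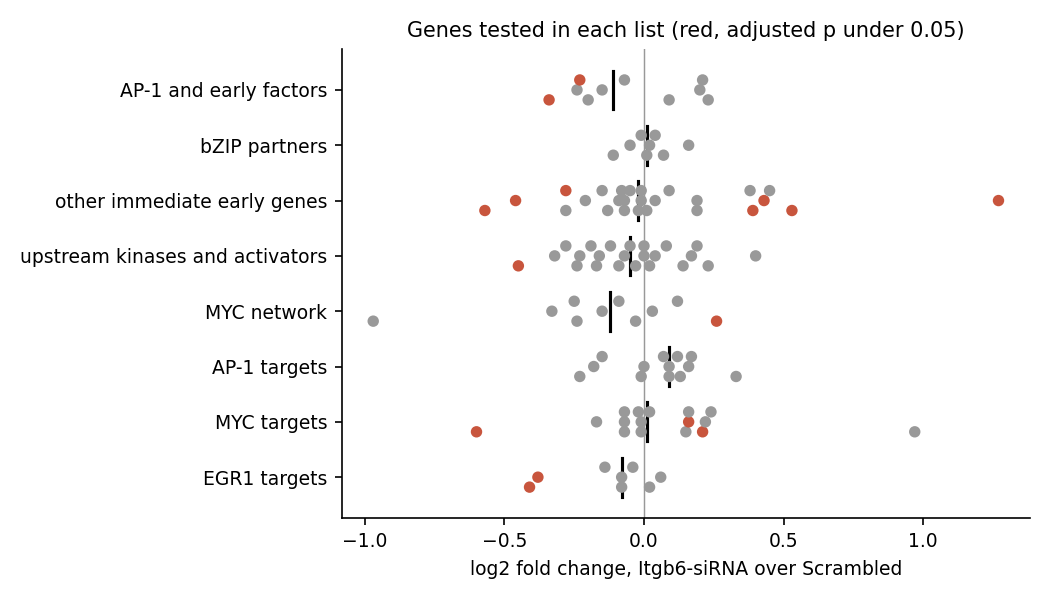
Log2 fold change of every tested gene in each list, with the list's median as a black line and genes with an adjusted p under 0.05 in red. The lists' medians lie between -0.12 and 0.09, and the immediate early genes hold red points on both sides of 0.

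Of 23 kinases and activators upstream of these genes, 3 were lower and 0 higher by p and fold, beside 5.20% and 4.37% of genes. By adjusted p, 1 was lower, beside 2.52% of genes, and 0 were higher, beside 2.11%. At an unadjusted p under 0.05 alone in edgeR, 9 were lower and 3 higher, beside 9.62% and 8.80% of all genes tested, and DESeq2 called 1 lower and 0 higher by p and fold, beside 3.27% and 2.73%. The gene lower by adjusted p was *Srf*, which encodes serum response factor, the activator of *Fos* and *Egr1* through serum response elements. *Srf* had 34.2 and 32.3 CPM in Scrambled and 25.5 and 23.1 CPM in Itgb6-siRNA, a log2 fold change of -0.45 ± 0.11 (SE, adjusted p = 0.0103 by edgeR). Its transcript has 64.4% GC, and with the trends removed it stood at -0.26 (adjusted p = 0.219 by edgeR). With a library left out, *Srf* kept an adjusted p under 0.05 only without Itgb6-siRNA replicate 1. *Elk3* and *Mrtfa*, partners of SRF, passed p and fold, at -0.32 (adjusted p = 0.238 by edgeR) and -0.28 (adjusted p = 0.141). The other partners of SRF in the list, *Elk1*, *Elk4* and *Mrtfb*, had log2 fold changes of -0.07, 0.14 and 0.08 and were not called. With a library left out, *Elk3* ran from -0.54 to -0.12 and *Mrtfa* from -0.46 to -0.12. With the trends removed *Mrtfa* stood at -0.14 and was not called. *Elk3* stood at -0.31 in that fit and still passed p and fold (unadjusted p = 0.0472 by edgeR). *Fos* and *Egr1* in the same libraries had the values -0.07 and 0.23 given above.

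Among targets, 0 of 13 tested AP-1 targets (of 16 listed) were called in either direction by either rule in edgeR or by DESeq2, and their median log2 fold change was 0.09. At an unadjusted p under 0.05 alone in edgeR, 3 of them were lower and 1 was higher, beside 9.62% and 8.80% of all genes tested. Over all genes tested, 5.20% were lower and 4.37% higher by p and fold, and 2.52% and 2.11% by adjusted p. Of 8 EGR1 targets, 2 were lower by both rules and 0 higher. The lower ones were *F3*, tissue factor (-0.38 ± 0.07, SE, adjusted p = 0.000750 by edgeR), and *Pdgfb*, a growth factor chain (-0.41 ± 0.12, 0.0396). Of 16 MYC targets, *Cad*, the protein of the first steps of pyrimidine synthesis, was lower (-0.60 ± 0.08, adjusted p = 3.24e-05 by edgeR), and the nucleolar genes *Npm1* (0.21 ± 0.05, 0.00379) and *Ncl* (0.16 ± 0.05, 0.0482) were higher by adjusted p only. At an unadjusted p under 0.05 alone in edgeR, 2 MYC targets were lower and 5 higher, beside 9.62% and 8.80% of genes. Of 10 genes of the MYC network, *Mga* was higher by adjusted p only (0.26 ± 0.07, SE, adjusted p = 0.0238 by edgeR). *Mnt* was lower by p and fold only (-0.33 ± 0.10, 0.0562). Of these 7 target and network genes, *Cad* (-0.48, adjusted p = 0.00353 by edgeR) and *F3* (-0.43, 0.000970) kept an adjusted p under 0.05 with the GC and length trends removed. Without Scrambled replicate 2, none of these 7 had an adjusted p under 0.05, and *Pdgfb* had none under 0.05 whichever library was left out.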

How the data were processed

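The libraries were made by poly(A) enrichment and read as unstranded pairs. The authors deposited an estimated count for each gene, without normalization, and FPKM, used here for levels between genes. The aligner, counter, genome build and annotation are not given in the sources used here, and per the study's methods the samples analysed were optimized after a cluster analysis.

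Estimated counts were rounded. Genes were kept with filterByExpr (minimum count 10, minimum total count 15), scaled with TMM factors and fitted in edgeR 4.0.16 (R 4.3.3) for its quasi-likelihood test. Adjusted p-values follow Benjamini and Hochberg over all 11727 genes tested. A gene was called by the study's thresholds, a fold change over 1.2 with an unadjusted p under 0.05, with the adjusted p beside it. Standard errors and 95% intervals come from that test, after it was tested on simulated data. Depth was 15435074 to 17220281 counts per library. Permuting the labels of 2 against 2 libraries cannot reach a p under 0.05.

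Alternatives were edgeR's exact and likelihood ratio tests, DESeq2 1.42.0, RLE factors, library size only, no filter, 10 counts in every library, adjusted p, a fold change over 1.5, GC content and length trends removed by lowess (span 0.3), limma 3.58.1 on log2(FPKM + 1) with a mean of at least 1 FPKM, and leaving out each library. Gene positions, GC content and overlaps are from GENCODE vM21 (GRCm38), which held 99.6% of the identifiers, and start windows from RefSeq. All 10 members and Itgb6 are named and, in each list, the genes with an adjusted p under 0.05, otherwise the 2 with the smallest p among those called. *Elk1*, *Elk3*, *Elk4*, *Mrtfa*, *Mrtfb*, *Mnt*, *Prdx2*, *Ccdc85b*, *Gm11175*, *Junos* and marker genes were named after their values were seen. The TGACATCA motif and the GC classes were chosen then too. The members and lists were chosen with earlier results of these data known.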

Additional observations from a re-analysis of the deposited data

How the results depend on the processing

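The member called lower by p and fold (1 of 10) became 0 with GC content and length trends removed, 2 by adjusted p, 0 at a fold change over 1.5, and 0 to 2 when a library was left out (0 without Itgb6-siRNA replicate 3 and 2 without Itgb6-siRNA replicate 1, namely *Jun* and *Jund*). The members called higher were 0 under every alternative. Over all genes, 610 lower became 383 with DESeq2, 295 by adjusted p, 110 at a fold change over 1.5, and 402 to 768 with a library left out, and 512 higher became 320 with DESeq2, 337 with limma on FPKM, 247 by adjusted p, 125 at a fold change over 1.5 and 338 to 645 with a library left out. With GC content and length trends removed, 420 genes were lower and 419 higher. Of the runs with a library left out, that without Scrambled replicate 2 called the fewest genes in each direction. *Jund* lost its call at -0.12 with the trends removed and at -0.20 without Itgb6-siRNA replicate 3, and *Jun* gained one at -0.36 without Itgb6-siRNA replicate 1. On limma's log2(FPKM + 1) scale, the adjusted p was 0.129 for *Jund* and 0.0910 for *Junb*. With a library left out, *Fosb* ran from -0.58 to 0.11 and *Fosl1* from -0.05 to 0.26, and direction reversed for *Fosb* (0.11 without Scrambled replicate 2 and 0.02 without Itgb6-siRNA replicate 1) and *Fosl1* (-0.05 without Scrambled replicate 2). Of 128 values for the 10 members, 122 kept direction and side of the threshold. The adjusted p and the fold change over 1.5 were not counted there. Only *Jund* was called before any alternative, and most runs share the same counts, so these are not independent checks. A library left out leaves 1 in its group, assumed to vary like the other group. The causes were not tested, apart from the stricter thresholds. No paired analysis was possible because the groups share only 1 replicate number. Below about 100 counts, as in *Fos*, *Fosb* and *Egr1*, depth limits what can be seen.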
